A study of Mus musculus with 6 samples.

Results

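The genes described here are 9 core genes of base excision and single-strand break repair: Apex1, Ogg1, Ung, Polb, Xrcc1, Lig3, Parp1, Parp2 and Mutyh. They were chosen by gene symbol, HMGB1 being a known cofactor of base excision repair, and all 9 were found among the 12134 gene symbols of the table. RNA-seq compared shHMGB1 cells, which carry a doxycycline-inducible hairpin RNA against Hmgb1, with shCTRL cells, which carry an inducible control hairpin. Each group had 3 libraries, labelled replicates A, B and C. Both groups were AB22 cells, a mouse malignant mesothelioma line, transduced with pTRIPZ virus (multiplicity of infection 20), put through 4 µg/mL puromycin and kept in 5% oxygen. Cells in both groups had received 1 µM doxycycline for 7 to 10 days and were synchronized in G1, and the RNA was depleted of ribosomal RNA. Both derive from 1 line, and the sources used here do not say if replicates were infected separately, so p-values reflect only the spread among these 6 libraries, which may be technical.

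Base excision repair removes small base lesions such as oxidized guanine or uracil. A glycosylase cuts out the damaged base, APEX1 (AP endonuclease) nicks the strand at the empty site, DNA polymerase beta (Polb) trims the end and fills the gap, and DNA ligase III (Lig3), held by the scaffold XRCC1, seals it. PARP1 and PARP2 bind single-strand breaks and build ADP-ribose chains that recruit XRCC1. HMGB1 binds bent and gapped DNA and has been shown to stimulate APEX1 and the flap endonuclease FEN1 in the long-patch branch of the pathway, in which several bases are replaced.

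Depth was 15092340 to 20365552 reads per shHMGB1 library and 12867332 to 23425330 reads per shCTRL library, summed over listed genes. Levels are given in RPKM, which are reads scaled to gene length and library size. Sets of 3 values follow the order A, B, C. Hmgb1 itself measured 7.18, 5.79 and 3.80 RPKM in shHMGB1 cells, against 33.4, 45.5 and 31.9 RPKM in shCTRL cells. Every shHMGB1 library lay below every shCTRL library (log2 fold change -2.73 ± 0.26 SE, limma with Benjamini-Hochberg adjustment, adjusted p = 0.0269). Leaving out shCTRL replicate A gave an adjusted p of 0.137, leaving out B 0.248 and leaving out C 0.115, and leaving out shHMGB1 replicate B gave 0.197 (limma). Of 12 mesothelial markers, 3 were among the listed genes (Msln, Bnc1 and Efemp1), and Wt1, Calb2 and Krt8 were not. Msln averaged 32.9 ± 5.66 RPKM in shHMGB1 cells and 67.2 ± 13.6 RPKM in shCTRL cells, and Bnc1 2.45 ± 0.41 and 3.98 ± 0.40 RPKM in shHMGB1 and shCTRL cells (SD, n = 3 each), both with groups apart and adjusted p-values of 0.249 and 0.479 (limma). Efemp1, the most abundant of the 3, averaged 428 ± 62.3 RPKM in shHMGB1 cells and 476 ± 40.6 RPKM in shCTRL cells. Its groups overlapped (log2 fold change -0.16, adjusted p = 0.794, limma). Of 6 fibroblast markers 5 were listed. Dcn averaged 9.90 ± 2.53 RPKM in shHMGB1 cells and 3.71 ± 1.35 RPKM in shCTRL cells, with groups apart (adjusted p = 0.346, limma). Col3a1 was also higher in shHMGB1 cells with groups apart (log2 fold change 0.29). The other listed ones, Pdgfra (-0.59), Pdgfrb (0.22) and Col1a1 (0.62), overlapped between groups. The part of these differences in the repair gene values was not tested. Of 6 leukocyte markers, 0 were listed. Of 5 endothelial markers 1 was listed, Kdr, whose groups overlapped. Of 4 epithelial markers 1 was listed, Cdh1, at a mean of 0.418 RPKM, lower in shHMGB1 cells with groups apart. The summed level of 19 listed mitosis genes was 36.0 to 84.2 RPKM in shHMGB1 libraries and 24.0 to 37.0 RPKM in shCTRL libraries.

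Of the 9 repair genes, 8 had a mean of at least 0.5 RPKM and were tested, and 0 of the 8 differed between shHMGB1 and shCTRL cells at an adjusted p under 0.05. Over all 11669 tested genes 0.0257% passed that threshold. At an unadjusted p under 0.05 the count was also 0 of 8, beside 7.91% of all tested genes, and limma's voom on reads recovered from the table likewise called 0 of 8. The values of the 2 groups overlapped for all 8 tested genes. Of their log2 fold changes 3 were positive and 5 negative, with a median of -0.10, against a median of 0.01 over all tested genes. The 95% intervals of the 8 fold changes reached down to 0.546-fold (Apex1) and up to 1.57-fold (Polb). Ung, the gene below 0.5 RPKM, was higher in every shHMGB1 library than in any shCTRL library.

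**Figure D1:**
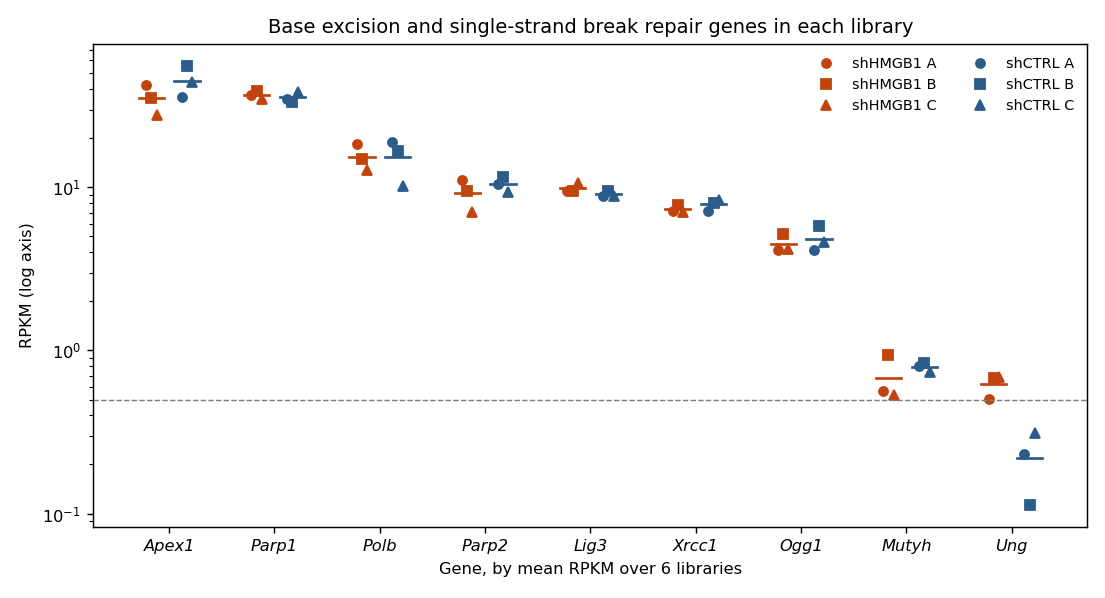
Level of each repair gene in RPKM (log axis) in the 6 libraries, with genes ordered by mean level. Points are libraries (circle A, square B, triangle C), short bars are group means, and the dashed line marks the 0.5 RPKM mean needed for testing. The groups overlap for 8 genes, and for Ung all shHMGB1 points lie above all shCTRL points.

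The steady-state levels per length spread over a wide range. Apex1 and Parp1 stood highest, with means of 40.2 and 36.3 RPKM over the 6 libraries, above 87.1% and 85.6% of listed genes. Their order was not fixed, since Apex1 was the higher of the pair in 4 of 6 libraries. Polb followed at 15.4 RPKM, then Parp2 at 9.85 RPKM, Lig3 at 9.47 RPKM and Xrcc1 at 7.61 RPKM. Parp2 exceeded Lig3 in 5 of 6 libraries, with overlapping ranges, while Lig3 exceeded Xrcc1 in 6 of 6 with no overlap. Ogg1 averaged 4.66 RPKM. Mutyh and Ung were near the bottom of the table, at 0.738 and 0.420 RPKM, above 6.74% and 2.72% of listed genes. These 2 genes stand just inside and just outside the filter of 0.5 RPKM.

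Among the glycosylases, Ogg1 removes 8-oxoguanine paired with cytosine. It measured 4.11, 5.18 and 4.17 RPKM in shHMGB1 cells, against 4.11, 5.77 and 4.61 RPKM in shCTRL cells. Replicate B was the highest in each group, and the groups overlapped (log2 fold change -0.10 ± 0.20 SE, limma adjusted p = 0.868). Mutyh removes adenine placed opposite 8-oxoguanine. It measured 0.565, 0.939 and 0.536 RPKM in shHMGB1 cells, against 0.803, 0.843 and 0.742 RPKM in shCTRL cells. The highest value and the 2 lowest were all in shHMGB1 libraries, so the wider spread lay there. These levels rested on 13 to 34 reads per library, and the log2 fold change was -0.23 with a 95% interval of -0.87 to 0.40 (adjusted p = 0.796, limma).

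Ung encodes the uracil-DNA glycosylase, whose nuclear form is known to act at replication forks and to be made mostly in S phase. It had 25, 38 and 26 reads in shHMGB1 cells, against 8, 3 and 20 reads in shCTRL cells. As RPKM these were 0.504, 0.676 and 0.686 in shHMGB1 cells, against 0.233, 0.113 and 0.310 in shCTRL cells. The means were 0.622 ± 0.10 and 0.219 ± 0.10 RPKM in shHMGB1 and shCTRL cells (SD, n = 3 each), and the groups did not overlap. Pooled over replicates there were 89 reads in shHMGB1 and 31 in shCTRL cells, a ratio of 2.55 per library size, with an exact 95% interval of 1.67 to 3.97 that covers counting error only. The mean of 0.420 RPKM kept Ung out of the test. When no filter was applied, its log2 fold change on the log2(RPKM + 0.1) scale was 1.22 ± 0.31 (SE, 95% interval 0.49 to 1.95), with an unadjusted p = 0.00494 and an adjusted p = 0.386 in limma, which did not pass. The size depends on the constant added, since the log2 difference was 1.61 with nothing added and 0.41 with 1 RPKM added. With 0.1 added it was 0.95 without shCTRL replicate B, the library with 3 reads, and 1.43 without shCTRL replicate C. The groups also stayed apart when libraries were rescaled to equal RPKM sums (1.46) or to equal medians (1.18). Of the 9 genes, Ung alone had groups apart, 11.1% of them. Over all listed genes 7.12% lay wholly higher in shHMGB1, and among the 465 genes under the filter 12.7% did, so 1 gene in 9 is close to that background.

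Mitosis genes lay on the same side of 0 as Ung. All 19 tested mitosis genes had positive log2 fold changes, beside 51.7% of all tested genes, with a median of 0.93 and 0 past the threshold (lowest adjusted p = 0.493, limma). At an unadjusted p under 0.05 there were 7 of 19, beside 7.91% of all tested genes, and 5 of 19 had every shHMGB1 library above every shCTRL library, beside 7.12% of all listed genes. Their mean deviation from each gene's own average was -0.05, 1.33 and 0.08 on the log2 scale in shHMGB1 cells, against -0.65, -0.03 and -0.67 in shCTRL cells. The highest mitosis value was in shHMGB1 replicate B, while Ung was at 0.686 RPKM in shHMGB1 replicate C and 0.676 RPKM in replicate B. The part of cell cycle position in the Ung values was not tested. In bulk RNA, more cells in a state and more RNA per cell cannot be told apart.

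APEX1 makes the incision that all glycosylase branches share. Apex1 measured 42.6, 35.3 and 27.9 RPKM in shHMGB1 cells, against 35.7, 55.5 and 44.2 RPKM in shCTRL cells. The lowest value was in shHMGB1 replicate C and the highest in shCTRL replicate B, but shCTRL replicate A lay within the shHMGB1 range. The log2 fold change of -0.35 ± 0.22 (SE, 95% interval -0.87 to 0.17) was the farthest from 0 of the 8 tested genes and did not pass (adjusted p = 0.722, limma). Leaving out shCTRL replicate B gave -0.19, as did leaving out shHMGB1 replicate C, and it was -0.51 without shCTRL replicate A and -0.50 without shHMGB1 replicate A. The lowest adjusted p over all alternatives was 0.244, without shHMGB1 replicate A (limma). Polb measured 18.5, 15.0 and 12.8 RPKM in shHMGB1 cells, against 18.9, 16.8 and 10.2 RPKM in shCTRL cells. In each group the A library was highest and the C library lowest, and the means of 15.4 ± 2.90 and 15.3 ± 4.56 RPKM in shHMGB1 and shCTRL cells (SD, n = 3 each) lay close together (log2 fold change 0.05 ± 0.26 SE, adjusted p = 0.953, limma).

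Xrcc1 and Lig3 encode the scaffold and ligase of the sealing step. Xrcc1 measured 7.20, 7.80 and 7.06 RPKM in shHMGB1 cells, against 7.16, 8.04 and 8.40 RPKM in shCTRL cells. The groups overlapped, and the 95% interval of the fold change ran from 0.733 to 1.20 (log2 fold change -0.09 ± 0.15 SE, adjusted p = 0.839, limma). Lig3, which also supplies the ligase of mitochondria, measured 9.44, 9.44 and 10.7 RPKM in shHMGB1 cells, against 8.85, 9.47 and 8.89 RPKM in shCTRL cells. Only shHMGB1 replicate C stood above the shCTRL range, and the fold change interval was 0.859 to 1.37 (adjusted p = 0.799, limma).

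The break sensors Parp1 and Parp2 overlapped between groups. Parp1, which accounts for most ADP-ribosylation at DNA breaks, measured 37.1, 39.2 and 34.6 RPKM in shHMGB1 cells, against 34.9, 33.4 and 38.6 RPKM in shCTRL cells. Its counts, 1997 to 3355 reads per shHMGB1 library and 1406 to 3818 per shCTRL library, were the deepest of the 9 genes. Its fold change interval was 0.828 to 1.30 (log2 fold change 0.05 ± 0.14 SE, adjusted p = 0.898, limma). Parp2 measured 11.1, 9.52 and 7.07 RPKM in shHMGB1 cells, against 10.4, 11.6 and 9.37 RPKM in shCTRL cells. Its lowest value was again in shHMGB1 replicate C, and the groups overlapped (log2 fold change -0.20 ± 0.20 SE, adjusted p = 0.78, limma).

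**Figure D2:**
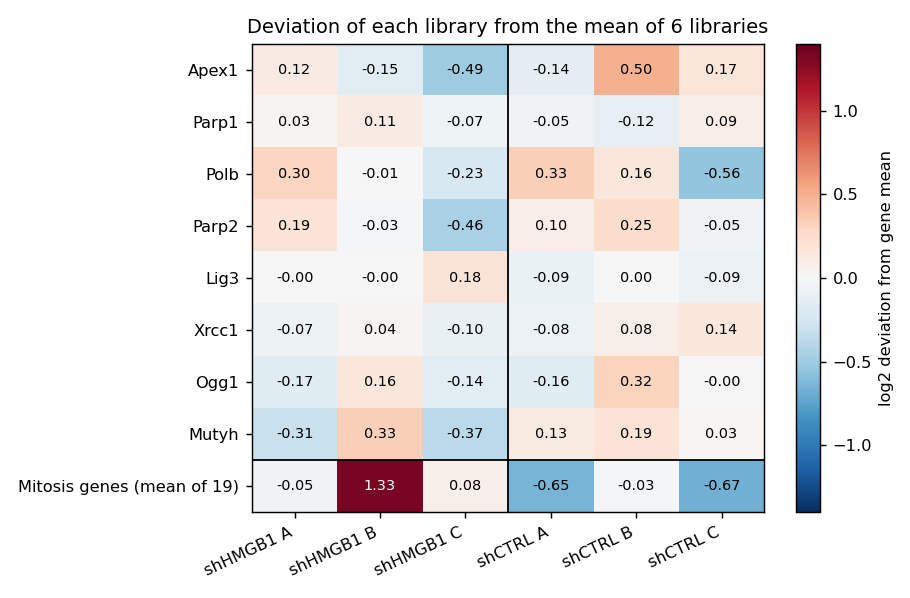
Deviation of each library (columns) from the gene's mean over 6 libraries, in log2(RPKM + 0.1), for the 8 tested repair genes (rows) and for the mean of 19 mitosis genes. Apex1 and Parp2 are lowest in shHMGB1 C, Polb is lowest in shCTRL C, and the mitosis genes are highest in shHMGB1 B at 1.33.

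The libraries differed in how many of the 8 genes lay above their own mean over the 6 libraries. In shHMGB1 replicate C it was 1 of 8 (Lig3), beside 48.2% of all tested genes, and the mean deviation was -0.21 on the log2 scale. In shCTRL replicate B, it was 7 of 8, beside 51.7% of all tested genes, with a mean deviation of 0.17. The median deviation of all tested genes was -0.021 in shHMGB1 replicate C and 0.013 in shCTRL replicate B. The other 4 libraries had mean deviations from -0.03 to 0.06. Without shHMGB1 replicate C or without shCTRL replicate B the median log2 fold change of the 8 genes was -0.03 instead of -0.10, and 0 of the 8 were called in either case. Without shCTRL replicate B 0 of all 11669 tested genes were called, so the count of 0 of 8 says little there. When libraries were rescaled to equal RPKM sums, the median of all tested genes moved to 0.36 and that of the 8 genes to 0.26, so that all 8 had positive values. Relative to the shifted median they ranged from -0.36 (Apex1) to 0.11 (Lig3).

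Ratios between partners were compared within each library, and tested as differences of log2(RPKM + 0.1). With 3 libraries against 3 an exact permutation test cannot give a p under 0.1, and 7 ratios were compared. The ratio of Ung to Ogg1 was 0.123, 0.130 and 0.164 in shHMGB1 cells, against 0.0567, 0.0196 and 0.0674 in shCTRL cells. All 3 shHMGB1 ratios lay above the shCTRL ratios (two-sided exact permutation p = 0.1, the smallest possible, adjusted p = 0.467). This largely restates the separation of Ung itself, since Ogg1 overlapped between groups (log2 fold change -0.10). The lowest ratio, in shCTRL replicate B, rests on 3 Ung reads. The mean log2 ratio differed by 1.71 with nothing added to the RPKM and by 1.32 with 0.1 added. The other 6 ratios overlapped between groups, with exact permutation p-values of 0.2 to 0.5 and adjusted p-values of 0.467 to 0.5. Lig3 to Xrcc1, whose products form 1 complex, was 1.31, 1.21 and 1.52 in shHMGB1 cells, against 1.24, 1.18 and 1.06 in shCTRL cells. Parp1 to Parp2 was 3.34, 4.12 and 4.90 in shHMGB1 cells, against 3.35, 2.88 and 4.12 in shCTRL cells. Apex1 to Polb spread from 2.17 to 2.36 in shHMGB1 cells and from 1.89 to 4.34 in shCTRL cells, a difference in spread that was not tested. Lig1, the replicative ligase, stood at 0.122, 0.321 and 0.207 of Lig3 in shHMGB1 cells, against 0.108, 0.111 and 0.161 in shCTRL cells, and the 2 highest ratios were in shHMGB1 replicates B and C.

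**Figure D3:**
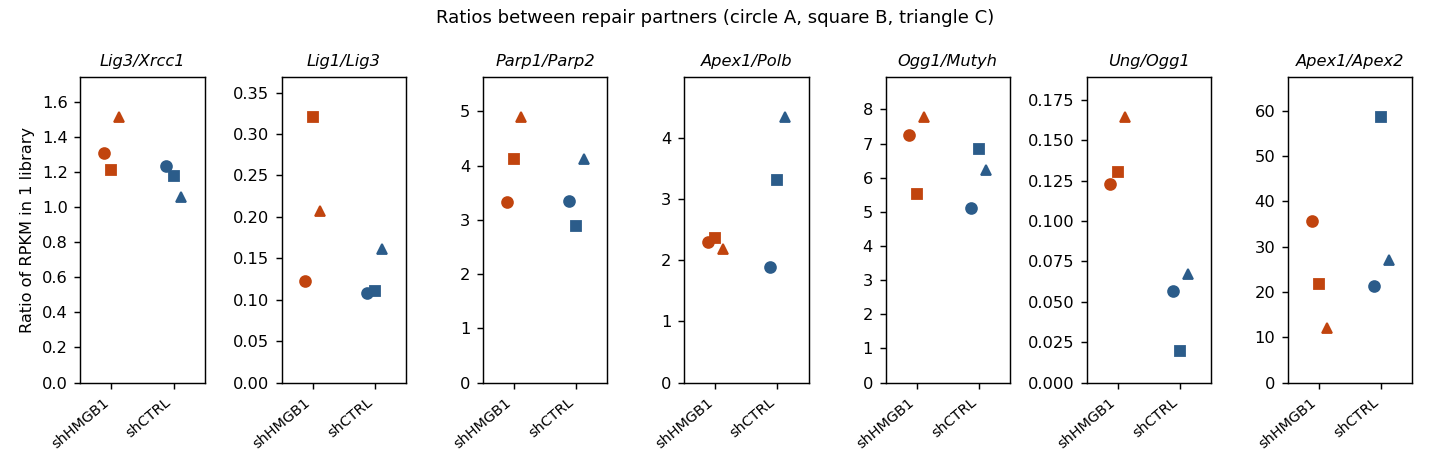
Ratio of RPKM between 7 pairs of repair genes in each library (circle A, square B, triangle C), with shHMGB1 in red to the left and shCTRL in blue to the right of each panel, on linear axes that start at 0. The groups are apart only for Ung/Ogg1, where shHMGB1 ratios are 0.123 to 0.164 and shCTRL ratios 0.0196 to 0.0674.

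Other genes of the pathway were drawn from 4 lists. Of 37 such genes 35 were listed and 34 tested, and 0 passed at an adjusted p under 0.05, with 18 positive and 16 negative log2 fold changes and a median of 0.01. The other glycosylases with the nucleotide-pool enzyme Nudt1 had 0 of 7 past the threshold and a median of 0.02. Mpg, which removes alkylated bases and was the most abundant of them, measured 12.1 ± 1.35 RPKM in shHMGB1 cells and 11.4 ± 0.56 RPKM in shCTRL cells (SD, n = 3 each). Neil2 and Neil3 were not among the listed genes. End-processing genes had 0 of 5 past the threshold and a median of -0.01. Genes that make, complete or remove ADP-ribose had 0 of 7 and a median of -0.07. The most abundant, Parp3, measured 18.1 ± 3.19 RPKM in shHMGB1 cells and 19.0 ± 2.85 RPKM in shCTRL cells.

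Long-patch factors, the branch that HMGB1 is known to stimulate through FEN1, had 0 of 15 past the threshold and a median of 0.06. At an unadjusted p under 0.05 (limma) there were 2 of 15, beside 7.91% of all tested genes. Rpa2, a subunit of the single-strand DNA binding protein RPA, measured 5.06, 5.95 and 5.01 RPKM in shHMGB1 cells, against 3.15, 4.32 and 3.35 RPKM in shCTRL cells. All shHMGB1 values lay above all shCTRL values (log2 fold change 0.56 ± 0.19 SE, adjusted p = 0.533, limma). Rpa1, the large subunit, measured 50.1, 44.8 and 41.1 RPKM in shHMGB1 cells, against 35.0, 38.2 and 29.9 RPKM in shCTRL cells (log2 fold change 0.40 ± 0.16 SE, adjusted p = 0.6, limma). Its groups were apart on the deposited scale and overlapped after rescaling to equal medians. Rpa3, the small subunit, had a log2 fold change of -0.13. Pcna, the sliding clamp and the most abundant of the branch, measured 92.6 ± 24.1 RPKM in shHMGB1 cells and 94.5 ± 14.7 RPKM in shCTRL cells. The branch had 7 of 16 listed genes with groups apart, 4 higher (Fen1, Rpa1, Rpa2 and Pole) and 3 lower (Pold3, Pold4 and Rfc1), beside 14.2% of all listed genes, and Fen1, Pole, Pold3, Pold4 and Rfc1, like Lig1 and Rpa3 above, were named after their values were seen. After rescaling to equal RPKM sums only Rpa1 and Rpa2 of these stayed apart, and Pold3 and Rfc1 changed sign. The 19 mitosis genes described above also leaned higher in shHMGB1 cells (median log2 fold change 0.93, 0 past the threshold). The part of cell cycle position in the long-patch values, as in those of Ung, was not tested. Fen1 measured 5.37, 6.11 and 5.08 RPKM in shHMGB1 cells, against 4.32, 4.18 and 4.59 RPKM in shCTRL cells (adjusted p = 0.687, limma).

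**Figure D4:**
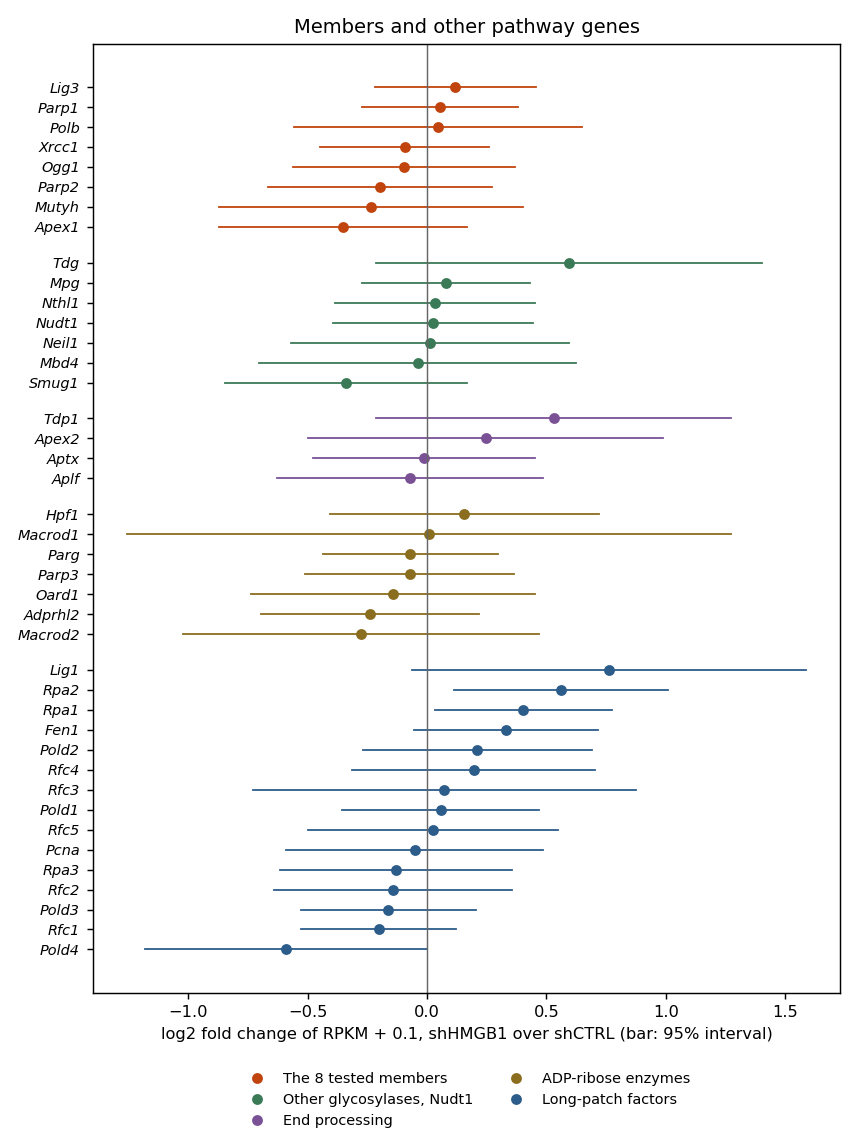
Log2 fold change, shHMGB1 over shCTRL, with 95% intervals (bars) for the 8 tested repair genes and other pathway genes, grouped by role. Every member interval crosses 0; Rpa2 and Rpa1 have intervals above 0 before adjustment over all genes.

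Most of the repair genes, though not all, had a feature of position that was not used to choose them. In GENCODE M21 on GRCm38, 6 of the 9 start within 1000 bases of a gene that runs the other way from the opposite strand, a head-to-head arrangement, against 16.9% of the 10821 listed protein-coding genes. Apex1 (chromosome 14, 50924968 to 50927139, plus strand) lies 74 bases from Osgep, a tRNA-modifying enzyme gene. Parp2 (chromosome 14, 50807841 to 50821301, plus strand) lies 73 bases from Rpph1, the RNA component of RNase P, and 108 bases from Ccnb1ip1. Mutyh (chromosome 4, 116807723 to 116819440) lies 82 bases from Toe1, Lig3 (chromosome 11, 82781108 to 82804274) 65 bases from the antisense transcript Gm11423, Xrcc1 (chromosome 7, 24546289 to 24573440) 170 bases from Pinlyp and Ogg1 (chromosome 6, 113326972 to 113335068) 224 bases from Gm15492. Ung (chromosome 5, 114130386 to 114139323), Parp1 (chromosome 1, 180568924 to 180601254) and Polb (chromosome 8, 22628126 to 22653435, minus strand) have no such neighbour.

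The 4 shortest stretches between paired starts are shown because a pair shares them as upstream sequence, and the stretch before Ung because it is the gene whose groups were apart. They are RefSeq promoter sequences of GRCm38 on the plus strand, cut at the annotated starts, with capitals marking CCAAT boxes (CCAAT or its reverse ATTGG) and GC boxes (GGGCGG), the motifs found there of 6 searched on both strands.
Ung, chr5:114130185-114130385: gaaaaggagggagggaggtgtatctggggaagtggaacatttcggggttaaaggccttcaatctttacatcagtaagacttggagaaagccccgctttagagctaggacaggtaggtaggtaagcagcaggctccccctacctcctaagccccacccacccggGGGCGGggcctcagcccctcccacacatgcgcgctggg
Apex1 and Osgep, chr14:50924894-50924967: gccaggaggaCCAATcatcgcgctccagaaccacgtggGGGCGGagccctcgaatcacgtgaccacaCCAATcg
Parp2 and Rpph1, chr14:50807768-50807840: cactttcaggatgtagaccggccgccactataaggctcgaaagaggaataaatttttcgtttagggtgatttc
Mutyh and Toe1, chr4:116807641-116807722: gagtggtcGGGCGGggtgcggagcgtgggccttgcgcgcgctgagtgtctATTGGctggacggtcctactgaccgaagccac
Lig3 and Gm11423, chr11:82781043-82781107: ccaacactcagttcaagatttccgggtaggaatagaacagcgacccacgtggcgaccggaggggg

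RefSeq promoter windows, longer than the stretches printed, were matched for 8 of the 9 genes (9 windows, 2 of them for Mutyh), and Polb had no entry. The GC box was present in 7 of the 9 windows and in 35.7% of 32851 promoters. CCAAT was in 5 of 9, both Mutyh windows among them, and in 37.4% of promoters. A share over promoters of the listed genes alone is not given. An ETS word (CCGGAAG) was found for Ogg1 alone and in 8.86% of promoters. The cAMP response element TGACGTCA (1.79% of promoters), the E2F words TTTCCCGC, TTTCGCGC, TTTGCCGC and TTTGGCGC (2.26%) and the NRF1 motif (0.971%) were in 0 of the 9 windows. The GC content of the 5 stretches printed above was 43.8% for Parp2 and Rpph1 and 58.5% to 68.3% for the others.

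Of the head-to-head neighbours, Osgep, Toe1, Rpph1 and Gm11423 were listed, and none of these 4 passed the threshold. Osgep measured 3.40, 4.52 and 3.25 RPKM in shHMGB1 cells, against 2.37, 4.69 and 4.25 RPKM in shCTRL cells (adjusted p = 0.98, limma). Toe1, a 3′ exonuclease gene, measured 6.79, 5.23 and 3.66 RPKM in shHMGB1 cells, against 5.15, 6.88 and 5.62 RPKM in shCTRL cells, with the highest shCTRL value in replicate B and the lowest of all in shHMGB1 replicate C (adjusted p = 0.801, limma). Rpph1 was among the most abundant RNAs of the table, with 19371, 10808 and 9442 RPKM in shHMGB1 cells, against 17012, 19133 and 11844 RPKM in shCTRL cells. The groups overlapped (log2 fold change -0.32, adjusted p = 0.783, limma). Gm11423 measured 2.79, 3.75 and 2.67 RPKM in shHMGB1 cells, against 2.90, 3.86 and 3.82 RPKM in shCTRL cells (adjusted p = 0.786, limma), and the groups overlapped.

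Some reads could be shared with overlapping genes, since the sources used here do not say if counting was by strand. Annotated exons of Apex1 share 877 bases with Pip4p1 (listed as Tmem55b), which measured 2.68, 4.23 and 5.48 RPKM in shHMGB1 cells, against 2.73, 3.54 and 6.31 RPKM in shCTRL cells. Exons of Lig3 share 1826 bases with Rffl and those of Ogg1 share 232 bases with Camk1, while Polb shares 45 bases with Gm26909 and Parp1 shares 7 bases with Mir6904. The gene lengths behind the deposited values, 1239 bases for Apex1, 6550 for Lig3 and 2565 for Ung, are shorter than the annotated exons of 1422, 7284 and 5468 bases, so the counting used another gene model, and the levels per length depend on it.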

How the data were processed

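Trimmomatic 0.32, STAR 2.5.3a, edgeR and featureCounts are named, with mm10 and GRCm38, per the submitters' processing notes. The table the authors deposited holds log2 RPKM for 12134 genes in 6 libraries, raised here as powers of 2. Its gene filter, gene model and strandedness: not given in the sources used. Reads were recovered from the steps of the values: 90.4% of values of 1610 genes with 1 annotated transcript lay within 0.05 of a whole read, after taking off a prior of 0.25 reads, and 12132 of 12134 genes gave whole reads within 0.02. Library sizes behind the values were 0.845 to 1.09 times the recovered totals, so a scaling between libraries is in them. The SE of each fold change reflects the spread among libraries, as limma estimates it, and counting intervals cover counting error only.

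Testing used limma 3.58.1 (R 4.3.3) for genes averaging 0.5 RPKM or more, on log2(RPKM + 0.1), group as the only term, eBayes with trend and robust, two-sided, Benjamini-Hochberg over 11669 genes at 0.05. Fold changes divide shHMGB1 by shCTRL on that scale, which understates changes of low genes. The scripts were tested on simulated data. The 9 genes, the lists and the tests were chosen with earlier results of these data known. Named were all 9, Hmgb1 and the listed mesothelial, fibroblast, endothelial and epithelial markers. Also named were the most abundant gene of each list, genes at an unadjusted p under 0.05, and head-to-head or overlapping neighbours. Others are marked. The values of 1 gene of the lists are not reported here. Alternatives were other pseudocounts, filters, scalings, weights, voom, the replicate letter as a block and leaving out each library.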

Additional observations from a re-analysis of the deposited data

How the results depend on the processing

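Of the 8 tested repair genes 0 were called under each of the 18 alternatives (Ogg1 and Mutyh fall under the filter of 5 RPKM, and Ung enters only without a filter). With the filter of 5 RPKM, or without shCTRL replicate B, shCTRL replicate C or shHMGB1 replicate B, 0 of all tested genes were called. A count of 0 repair genes says little in those settings. The sign of the differences of the 8 genes was not stable. With equal RPKM sums Apex1, Ogg1, Xrcc1, Parp2 and Mutyh had log2 fold changes of 0.0050, 0.25, 0.26, 0.16 and 0.079, where the median of all genes was 0.36. With equal medians Polb and Parp1 had -0.015 and -0.0075. With array quality weights, whose estimation stopped before convergence, Ogg1, Polb and Mutyh had 0.061, -0.068 and 0.0099. On leaving out a library Ogg1 spanned -0.20 (without shCTRL replicate A) to 0.035 (without shCTRL replicate B), and Polb -0.22 (without shCTRL replicate C) to 0.22 (without shCTRL replicate A), with -0.094 without shHMGB1 replicate A. The causes were not tested. Lig3 stayed positive in all 18, from 0.06 to 0.47. Other filters, eBayes without trend and robust and the replicate block leave the fold change of a gene as it was. The median of the 8 genes was 0.26 with equal RPKM sums. The 7 partner ratios kept their direction in each of the 8 alternatives run on them, none of which rescaled libraries. The replicate block, 1 of these, leaves the mean difference unchanged by construction. The sizes of the ratio differences varied over the others. The log2 difference of Ogg1 to Mutyh ran from 0.024 (without shCTRL replicate A) to 0.26 (without shHMGB1 replicate B). That of Apex1 to Apex2 ran from -0.96 (without shHMGB1 replicate A) to -0.19 (without shCTRL replicate B).

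Over all genes the 3 calls became 0 among genes of at least 5 RPKM, 5 with equal RPKM sums, 5 with equal medians, 21 with array quality weights, 7 with the replicate block, and 0 to 8 on leaving out a library. Hmgb1 was at -2.73 with adjusted p = 0.0546 among genes of at least 5 RPKM, and its log2 fold change spanned -2.93 to -2.48 on leaving out a library. Same-letter libraries did not deviate together in every pair (correlations across genes of 0.15, -0.10 and 0.48 for A, B and C), so the letters are not treated as pairs. Under the replicate block 0 of the 8 repair genes were called. Depth limits Ung and Mutyh most, with 3 to 38 reads per library.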
